A study of Saccharomyces cerevisiae with 12 samples.

Results

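Budding yeast turns pyruvate into ethanol and acetate with a small set of enzymes, and 9 of their genes were followed here through strains that lack a subunit of the chromatin remodeller SWI/SNF. The genes were chosen by systematic name from the 5935 genes of the deposited expression table: the pyruvate decarboxylase genes PDC1, PDC5 and PDC6, the alcohol dehydrogenase genes ADH1, ADH3, ADH4 and ADH5, and the aldehyde dehydrogenase genes ALD4 and ALD6. All 9 had values in all 12 libraries and all 9 passed the filter on low values. No measured value entered the choice, but the set was put together when results of these data were already known.

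RNA from budding yeast (Saccharomyces cerevisiae), strain BY4741, was sequenced in 4 groups of 3 libraries, which the labels describe as independent biological triplicates taken in log phase at 30 °C. Per the labels, the snf5, snf2 and swp82 deletions carry kanMX4 in place of the named gene, and each also carries Snf6 with a 2FLAG tag linked to LEU2. The wild type has no deletion and carries the same kind of tag on Snf2. All 4 strains are mata and share the alleles his3delta_1, leu2delta_0, met15delta_0 and ura3delta_0. Snf2 is the ATPase of SWI/SNF, Snf5 a core subunit and Swp82 an accessory subunit. By these labels strain and tag were not separated: every comparison with the wild type also compares a tag on Snf6 with a tag on Snf2.

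Gene read totals ran from 9012746 to 12875057 per library. Levels are given as scaled CPM, the CPM of a gene divided by the authors' TMM factor, a scaling that evens out library composition. The deleted genes followed the labels: SNF5 had 2 reads over the 3 snf5 libraries, SNF2 had 22 over the 3 snf2 libraries and SWP82 had 0 over the 3 swp82 libraries. LEU2, to which the labels link the tag, went against them, with 74.7 ± 16.1 scaled CPM in the snf5 deletion, 0 reads in every snf2 and swp82 library, and 56.2 ± 0.869 in the wild type (SD, n = 3 each). Whether the libraries labelled snf2 and swp82 carry the tag they are labelled with is therefore in doubt, and a tag shared by the deletion strains is taken from the labels alone. LEU2 status also goes along with each comparison between the snf2 or swp82 deletion on the one hand and the snf5 deletion or wild type on the other, and its part in the results was not tested. SNF2, the gene with the tag in the wild type by its label, stood lower there than in the snf5 and swp82 deletions. It had 97.6 ± 5.21 scaled CPM in the wild type, 153 ± 10.8 in snf5 and 133 ± 8.85 in swp82, with no overlap of the wild-type libraries with either. The part of the tag in that difference was not tested. The a-cell receptor gene STE2 had reads in all groups (654 ± 42.9, 729 ± 36.5, 1135 ± 149 and 913 ± 39.6 scaled CPM in the snf5, snf2 and swp82 deletions and the wild type) as a mata label asks, but all 6 MATa marker genes fell in the snf5 and in the snf2 deletion. Of 4 MATalpha markers, 2 rose in the snf5 deletion and 3 in the snf2 deletion, led by the receptor gene STE3 (12.7 ± 0.323 and 9.498 ± 0.545, against 1.56 ± 0.521 in the wild type).

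Pyruvate decarboxylase removes carbon dioxide from pyruvate to give acetaldehyde, using thiamine diphosphate as its cofactor. Alcohol dehydrogenases reduce acetaldehyde to ethanol and so regenerate NAD, and aldehyde dehydrogenases oxidise it to acetate, the source of acetyl-CoA outside the mitochondrion. Growing on glucose, yeast sends most pyruvate down the ethanol branch. PDC1 is the main decarboxylase gene of glucose-grown cells, PDC5 is held down while PDC1 is active and is raised when thiamine is short, and PDC6 is a minor form known from cells short of sulfur. ADH1 encodes the main fermentative enzyme of the cytosol, ADH3 the mitochondrial enzyme of an acetaldehyde and ethanol shuttle, ADH4 an enzyme raised by zinc shortage, and ADH5 a minor cytosolic form. ALD6 encodes the main cytosolic acetaldehyde dehydrogenase and ALD4 the main mitochondrial form, which is repressed by glucose.

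In both the snf5 and the snf2 deletion the minor decarboxylase genes PDC5 and PDC6 and the glucose-repressed ALD4 rose, while the main fermentative genes PDC1 and ADH1 and the mitochondrial ADH3 fell. PDC6 stood 4.46 times as high as in the wild type in the snf5 deletion and 13.4 times as high in the snf2 deletion, and ALD4 stood 2.86 and 2.79 times as high. The falls of PDC1, ADH1 and ADH3 came to 18.3 to 37.9% of the wild-type mean. ADH4 fell and ADH5 rose in the snf5 deletion, and in the snf2 deletion their libraries overlapped with the wild type's. Calls are by limma at an adjusted p under 0.05: 8 of the 9 genes passed in the snf5 deletion, where 29.3% of all 5820 genes tested did, and 6 of 9 in the snf2 deletion, where 27.7% did. In the swp82 deletion 0 of 9 passed, and 3.49% of all genes did. In RNA from whole cultures, a change in every cell and a change in the share of cells that use a gene cannot be told apart.

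The genes map to assembly R64 as follows. PDC1 (YLR044C) lies at chrXII:232390-234081 on the minus strand and PDC5 (YLR134W) at chrXII:410723-412414 on the plus strand. PDC6 (YGR087C) lies at chrVII:651290-652981 on the minus strand, and its neighbour upstream, 1652 bases away, is the catalase gene CTT1. ADH1 (YOL086C) lies at chrXV:159548-160594 on the minus strand, ADH3 (YMR083W) at chrXIII:434788-435915, ADH4 (YGL256W) at chrVII:15159-16307 and ADH5 (YBR145W) at chrII:533762-534817, these 3 on the plus strand. ADH4 is close to a telomere, 15158 bases from the chromosome end. ALD4 (YOR374W) lies at chrXV:1039840-1041399 and ALD6 (YPL061W) at chrXVI:432588-434090, both on the plus strand. No coding region of the 9 overlaps another annotated gene.

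PDC6 is known as a sulfur-poor enzyme, and its sequence is shown here because it is the member that changed most. Its coding sequence holds 6 methionine or cysteine codons among 563, or 1.07%, and only 2.39% of 5682 coding genes have a smaller share. PDC1 holds 17 and PDC5 18 among the same number of codons, close to the median share of all genes of 3.33%. The aligned stretch of 30 codons where PDC1 and PDC6 differ most in these codons, codons 40 to 69 counted from the start codon, shows the difference. Capitals mark methionine and cysteine codons, and PDC1 and PDC5 each have 3 where PDC6 has 0 (RefSeq, assembly R64, 5′ to 3′ on the coding strand).
PDC1, chrXII:233875-233964: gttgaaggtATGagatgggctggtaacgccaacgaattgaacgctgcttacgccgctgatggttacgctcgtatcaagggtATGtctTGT
PDC5, chrXII:410840-410929: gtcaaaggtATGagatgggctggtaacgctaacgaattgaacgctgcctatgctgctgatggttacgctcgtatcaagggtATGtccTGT
PDC6, chrVII:652775-652864: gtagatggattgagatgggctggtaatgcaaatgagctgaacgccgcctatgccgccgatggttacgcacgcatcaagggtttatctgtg
ALD4 holds 13 such codons among 519 and ALD6 18 among 500. Over the whole coding sequence PDC1 shares 87.2% of its bases with PDC5 and 75.0% with PDC6.

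Sequence likeness limits how far reads of 3 of these genes can be told from those of a relative, since the authors' handling of reads that match several places is not given in the sources used here. Of all windows of 50 bases in PDC1, 10.9% lay within 2 mismatches of a relative in its family, and the same held for PDC5. For PDC6 it was 0%. ADH1 shared 22.0% of its windows at this tolerance, all with ADH2, the ethanol-oxidising enzyme gene, and 14.0% exactly. For ADH3, ADH5, ALD4 and ALD6 the share was 0%. The families searched at this tolerance were PDC1, PDC5 and PDC6, then ADH1, ADH2, ADH3 and ADH5, and then ALD4, ALD5 and ALD6. Other dehydrogenase genes and the rest of the genome were searched for exact matches only. ADH4 was placed in no family, so its windows were not searched at this tolerance. Of its windows 0% were found exactly elsewhere in the genome.

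The windows upstream of the genes were read for short binding motifs because members that rose and members that fell are both at hand. The 4 windows below run from 400 to 101 bases before the start codon (R64, 5′ to 3′ on the coding strand). They are those of PDC6 and ALD4, which rose most, and of the main fermentative genes ADH1 and PDC1, which fell. PDC1 is not among the members that fell most: ADH3 fell more in both the snf5 and snf2 deletions, and ADH4 in the snf5 deletion. Their windows were searched but are not shown. Capitals mark every match, on either strand, to the 10 motifs searched.
PDC6, chrVII:653082-653381: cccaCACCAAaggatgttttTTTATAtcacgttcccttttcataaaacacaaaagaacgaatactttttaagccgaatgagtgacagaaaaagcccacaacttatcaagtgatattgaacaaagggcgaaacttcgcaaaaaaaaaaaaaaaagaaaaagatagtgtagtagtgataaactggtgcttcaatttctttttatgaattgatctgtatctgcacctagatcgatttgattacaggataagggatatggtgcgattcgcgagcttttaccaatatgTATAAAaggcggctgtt
ALD4, chrXV:1039440-1039739: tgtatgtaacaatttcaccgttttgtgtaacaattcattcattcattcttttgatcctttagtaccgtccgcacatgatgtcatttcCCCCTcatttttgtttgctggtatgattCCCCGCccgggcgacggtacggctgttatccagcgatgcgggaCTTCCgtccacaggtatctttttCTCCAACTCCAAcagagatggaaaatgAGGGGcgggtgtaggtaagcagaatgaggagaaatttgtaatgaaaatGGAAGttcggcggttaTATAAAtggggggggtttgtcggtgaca
ADH1, chrXV:160695-160994: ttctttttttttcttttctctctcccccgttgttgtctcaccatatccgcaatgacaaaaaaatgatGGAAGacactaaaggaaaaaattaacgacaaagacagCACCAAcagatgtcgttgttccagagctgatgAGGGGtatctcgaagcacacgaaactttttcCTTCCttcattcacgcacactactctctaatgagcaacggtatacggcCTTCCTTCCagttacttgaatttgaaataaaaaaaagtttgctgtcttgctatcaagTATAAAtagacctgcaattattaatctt
PDC1, chrXII:234182-234481: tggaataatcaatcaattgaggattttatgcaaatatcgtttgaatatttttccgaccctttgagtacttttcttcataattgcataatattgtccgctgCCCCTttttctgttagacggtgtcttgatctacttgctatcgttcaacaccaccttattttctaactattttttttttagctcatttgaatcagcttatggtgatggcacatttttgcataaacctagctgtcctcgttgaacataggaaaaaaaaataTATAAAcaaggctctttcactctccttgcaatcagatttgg
The motifs searched were those of Gcr1 (CTTCC), Rap1 (ACCCNNNCA), Reb1 (TTACCCG), Adr1 (TTGGNG), the stress response element (AGGGG), Cbf1 (CACGTG), Met31 and Met32 (TGTGGC), Zap1 (its zinc-responsive element), Mig1 (GCGGGG) and the TATA element (TATAAA). The TATA letters were present in 8 of the 9 windows, all but that of PDC5, and in 43.5% of 5682 windows of the same length over all genes. The stress response letters were in 6 of 9 (all genes 23.8%), with 2 matches in ALD4. The Gcr1 letters were in 4 of 9 (all genes 46.7%), and 4 of the matches were in ADH1. The Adr1 letters were in 3 of 9, those of PDC6, ADH1 and ALD4 (all genes 35.3%). Mig1's letters were in ALD4 alone (all genes 3.84%), and those of Cbf1 (4.54%) and of Met31 and Met32 (9.12%) were in ADH3 alone. No window held the letters for Rap1, Reb1 or Zap1, present in 8.91, 9.33 and 0.0880% of all windows. These are matches of letters and not sites, and the absence of a match covers this window only.

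**Figure D1:**
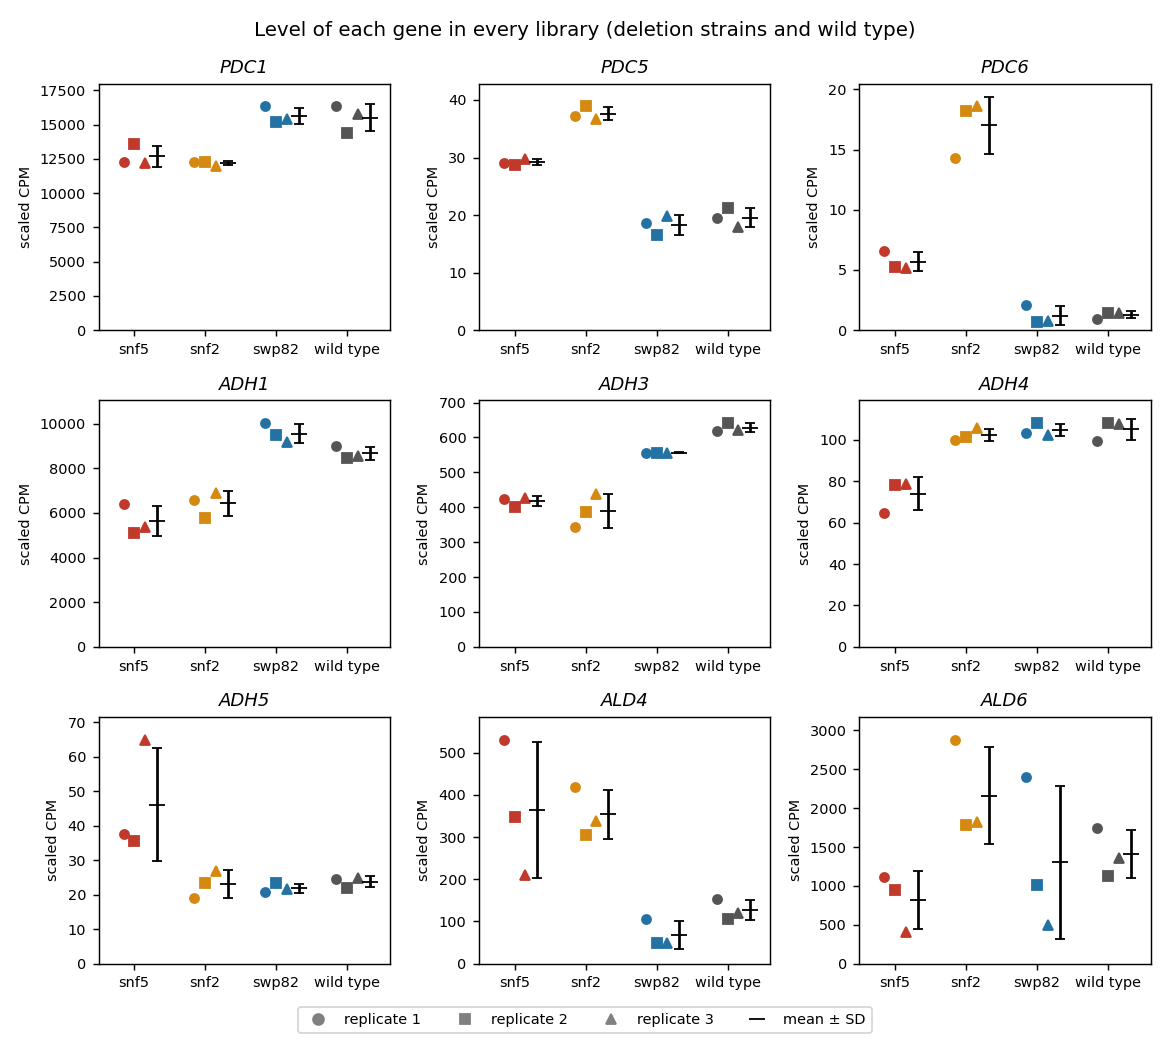
Level of each of the 9 genes in scaled CPM (linear axes from 0), for the snf5, snf2 and swp82 deletions and the wild type from left to right; each symbol is a library, its shape the replicate number, and the bar is the mean ± SD of 3. PDC6 sits at 14.3 to 18.6 in the snf2 libraries and at no more than 6.61 elsewhere, and ADH1 sits at 5120.2 to 6888 in the snf5 and snf2 libraries and at 8443 to 10032 in the others.

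Among the pyruvate decarboxylase genes, PDC6 had 6.61, 5.23 and 5.20 scaled CPM in the snf5 deletion, 14.3, 18.2 and 18.6 in the snf2 deletion, 2.12, 0.696 and 0.785 in the swp82 deletion, and 0.937, 1.44 and 1.44 in the wild type. Every snf2 library was above every snf5 library, and every snf5 library was above all swp82 and wild-type libraries, which overlapped. These levels rest on few reads in the low groups: 56 to 70 reads a library in the snf5 deletion, 174 to 209 in the snf2 deletion, 6 to 18 in the swp82 deletion and 11 to 18 in the wild type. On the log2(scaled CPM + 1) scale PDC6 rose by 1.56 ± 0.22 in the snf5 deletion (± SE, limma adjusted p = 0.000340) and by 2.99 ± 0.22 in the snf2 deletion (limma adjusted p = 2.18e-06). The added 1 understates the change of so low a gene, and edgeR on the recovered reads put the log2 changes at 2.15 and 3.73. PDC6 was in the authors' deposited filtered list of 506 genes, as was ALD4, and the other 7 genes were not.

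PDC5 had 29.1, 28.7 and 29.7 scaled CPM in the snf5 deletion, 37.2, 38.9 and 36.8 in the snf2 deletion, 18.6, 16.5 and 19.8 in the swp82 deletion, and 19.5, 21.2 and 17.9 in the wild type. The order of the groups was that of PDC6, with no overlap between the snf2 and snf5 libraries or between either and the rest. PDC5 rose by 0.56 ± 0.08 in the snf5 deletion (log2, limma adjusted p = 0.000348) and by 0.91 ± 0.08 in the snf2 deletion (limma adjusted p = 9.06e-06), 1.49 and 1.92 times the wild-type mean.

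PDC1 ran the other way, with 12249, 13589 and 12206 scaled CPM in the snf5 deletion, 12310.2, 12311 and 12018 in the snf2 deletion, 16332, 15228 and 15389 in the swp82 deletion, and 16364, 14427 and 15750.0 in the wild type. No snf5 or snf2 library reached the lowest wild-type library, and the swp82 and wild-type libraries overlapped. PDC1 fell by 0.29 ± 0.07 in the snf5 deletion (log2, limma adjusted p = 0.00797) and by 0.34 ± 0.07 in the snf2 deletion (limma adjusted p = 0.00328). The snf5 call was lost when libraries were scaled by their total count (-0.20, limma adjusted p = 0.0514) and when only the 6 libraries compared were fitted (limma adjusted p = 0.0552). Total-count scaling shifted all genes: their median log2 change from the wild type became 0.08 for the snf5, 0.13 for snf2 and -0.07 for swp82 libraries, beside values near 0 in the authors' scaling.

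PDC1 stayed far above its relatives per unit of coding length, at 99.7% of the summed PDC1, PDC5 and PDC6 level in the snf5 deletion, 99.6% in the snf2 deletion and 99.9% in both the swp82 deletion and the wild type. PDC6 made up 0.0449 ± 0.00798% of the family's level in the snf5 deletion, 0.139 ± 0.0205% in the snf2 deletion, 0.00754 ± 0.00470% in the swp82 deletion and 0.00828 ± 0.00226% in the wild type (SD, n = 3 each). PDC5 made up 0.230 ± 0.0170%, 0.307 ± 0.00715%, 0.117 ± 0.0106% and 0.127 ± 0.0178% in the same order. The family's summed level was 7516 ± 464 scaled CPM per kb in the snf5 deletion, 7251 ± 99.4 in the snf2 deletion, 9261 ± 353 in the swp82 deletion and 9181 ± 584 in the wild type. The summed level followed PDC1, and the minor forms were too low to move it.

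**Figure D2:**
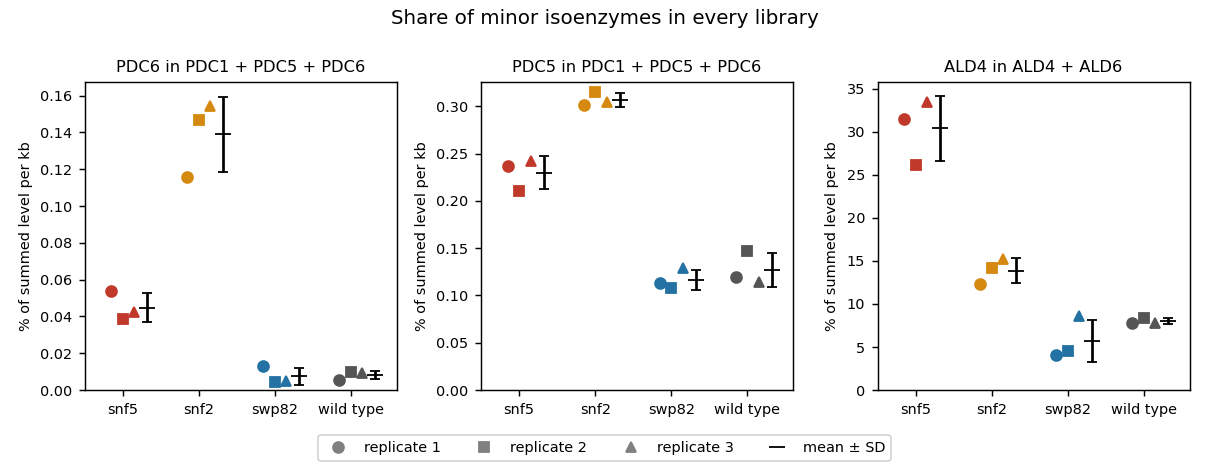
Share of PDC6 and of PDC5 in the summed PDC1, PDC5 and PDC6 level, and of ALD4 in the summed ALD4 and ALD6 level, in percent of the level per kb of coding sequence (linear axes from 0), by group and library, with mean ± SD of 3. PDC6 and PDC5 have their highest shares in the snf2 libraries, whereas the ALD4 share is highest in the snf5 libraries, at 26.1 to 33.5%.

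Among the alcohol dehydrogenase genes, ADH1 had 6376, 5120.2 and 5362 scaled CPM in the snf5 deletion, 6597, 5782 and 6888 in the snf2 deletion, 10032, 9466 and 9157 in the swp82 deletion, and 9008, 8443 and 8552 in the wild type. The snf5 and snf2 libraries overlapped each other and lay below all wild-type libraries, and every swp82 library lay above all wild-type libraries. ADH1 fell by 0.63 ± 0.09 in the snf5 deletion (log2, limma adjusted p = 0.000404) and by 0.44 ± 0.09 in the snf2 deletion (limma adjusted p = 0.00450), and its 0.14 ± 0.09 in the swp82 deletion did not pass the test (limma adjusted p = 0.350).

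ADH3 had 424, 401 and 426 scaled CPM in the snf5 deletion, 344, 386 and 439 in the snf2 deletion, 555, 556 and 557 in the swp82 deletion, and 618, 642 and 622 in the wild type. Again the snf5 and snf2 libraries overlapped each other and lay below the rest, and the swp82 libraries lay between them and the wild type. ADH3 fell by 0.59 ± 0.07 in the snf5 deletion (log2, limma adjusted p = 0.000165) and by 0.69 ± 0.07 in the snf2 deletion (limma adjusted p = 5.32e-05). In the swp82 deletion it stood at -0.17 ± 0.07 and did not pass (limma adjusted p = 0.183).

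ADH4 had 64.9, 78.3 and 78.9 scaled CPM in the snf5 deletion, 100, 101 and 106 in the snf2 deletion, 103, 108 and 102 in the swp82 deletion, and 99.4, 108 and 108 in the wild type. The snf5 libraries alone stood apart, and the other groups overlapped. ADH4 fell by 0.50 ± 0.07 in the snf5 deletion (log2, limma adjusted p = 0.000457). Its difference from the wild type was -0.04 in the snf2 deletion (95% interval -0.20 to 0.13) and -0.0053 in the swp82 deletion (95% interval -0.17 to 0.16).

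ADH5 had 37.6, 35.7 and 65.0 scaled CPM in the snf5 deletion, 18.9, 23.5 and 26.9 in the snf2 deletion, 20.8, 23.3 and 21.6 in the swp82 deletion, and 24.4, 22.0 and 24.9 in the wild type. All snf5 libraries were the highest, with replicate 3 well above the other two, and the remaining groups overlapped. ADH5 rose by 0.87 ± 0.20 in the snf5 deletion (log2, limma adjusted p = 0.00659), and over the removals of a single library the change was 0.60 to 1.03, called each time. In the snf2 deletion it was -0.05 (95% interval -0.49 to 0.38).

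ADH1 held 91.8 ± 0.977% of the summed level per kb of ADH1, ADH3, ADH4 and ADH5 in the snf5 deletion, 93.1 ± 0.757% in the snf2 deletion, 93.8 ± 0.282% in the swp82 deletion and 92.5 ± 0.365% in the wild type. ADH3, which fell in the same strains as ADH1, had a share of 6.36 ± 0.542%, 5.26 ± 0.629%, 5.07 ± 0.226% and 6.22 ± 0.294% in the same order. ADH5's share was 0.756 ± 0.296% in the snf5 deletion and 0.252 ± 0.0145% in the wild type. The summed level of these 4 genes was 5845 ± 634 scaled CPM per kb in the snf5 deletion, 6591 ± 565 in the snf2 deletion, 9728 ± 422 in the swp82 deletion and 8949 ± 274 in the wild type.

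Among the aldehyde dehydrogenase genes, ALD4 had 531, 348 and 210.3 scaled CPM in the snf5 deletion, 419, 305 and 338 in the snf2 deletion, 105, 50.1 and 48.7 in the swp82 deletion, and 154, 107 and 120.1 in the wild type. The snf5 and snf2 libraries overlapped each other and lay above every wild-type library, and the swp82 libraries lay below every wild-type library, the highest of them by little. ALD4 rose by 1.43 ± 0.34 in the snf5 deletion (log2, limma adjusted p = 0.00977) and by 1.48 ± 0.34 in the snf2 deletion (limma adjusted p = 0.00821). In the swp82 deletion ALD4 stood at -0.97 ± 0.34 and did not pass (limma adjusted p = 0.124). With the replicate number as a block the same value passed (limma adjusted p = 0.0150), and without swp82 replicate 1 it was -1.33 and also passed (limma adjusted p = 0.0316).

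ALD6 had 1112, 948 and 402 scaled CPM in the snf5 deletion, 2882, 1785 and 1816 in the snf2 deletion, 2401, 1012 and 502 in the swp82 deletion, and 1739.9, 1127 and 1362 in the wild type. All snf5 libraries were below, and all snf2 libraries above, the wild type, yet none of its differences from the wild type passed the test. The snf5 difference was -0.88 ± 0.51 (limma adjusted p = 0.231), that of snf2 0.60 ± 0.51 (limma adjusted p = 0.421) and that of swp82 -0.38 ± 0.51 (limma adjusted p = 0.665). The intervals were wide, -2.02 to 0.25 in the snf5 deletion and -0.53 to 1.73 in the snf2 deletion. With the replicate number as a block the limma adjusted p was 0.0522 for the snf5, 0.167 for the snf2 and 0.427 for the swp82 deletion. The spread of ALD6 between replicates, an SD of 0.73 on the log2 scale within groups, was larger than that of 99.7% of the 5820 genes tested, and ALD4's of 0.49 larger than that of 98.7%, beside a median of 0.11.

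Replicate 1 had the highest ALD6 and the highest ALD4 of its group in all 4 groups. The summed level of 12 stress and late-growth marker genes was also highest in replicate 1 of each group. It was 1924, 699 and 310.4 scaled CPM in the snf5 deletion, 1586, 1092 and 1407 in the snf2 deletion, 493, 285 and 331 in the swp82 deletion, and 1122, 686 and 695 in the wild type. TPS1 and TSL1 had the highest means of the 12 in every group and weigh most in this sum (460 ± 325 and 369 ± 441 in the snf5 deletion). The mean log2 level of the 12 was also highest in replicate 1 of each group. By that mean snf5 replicate 1 (4.88) lay below wild-type replicate 1 (5.54), while by the sum it lay above. No marker was at 0 in any group: the lowest group mean was 0.781 for the hexose transporter gene HXT5 in the swp82 deletion. Of the 12 markers, 0 rose and 4 fell in the snf5 deletion, where 29.3% of all genes were called. In the snf2 deletion 2 rose and 0 fell (27.7% of all genes), and in the swp82 deletion 0 rose and 5 fell (3.49%). The markers' median log2 changes were -0.48, 0.30 and -1.37 in that order. The part of the stress markers' differences in the ALD4 and ALD6 values was not tested.

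**Figure D3:**
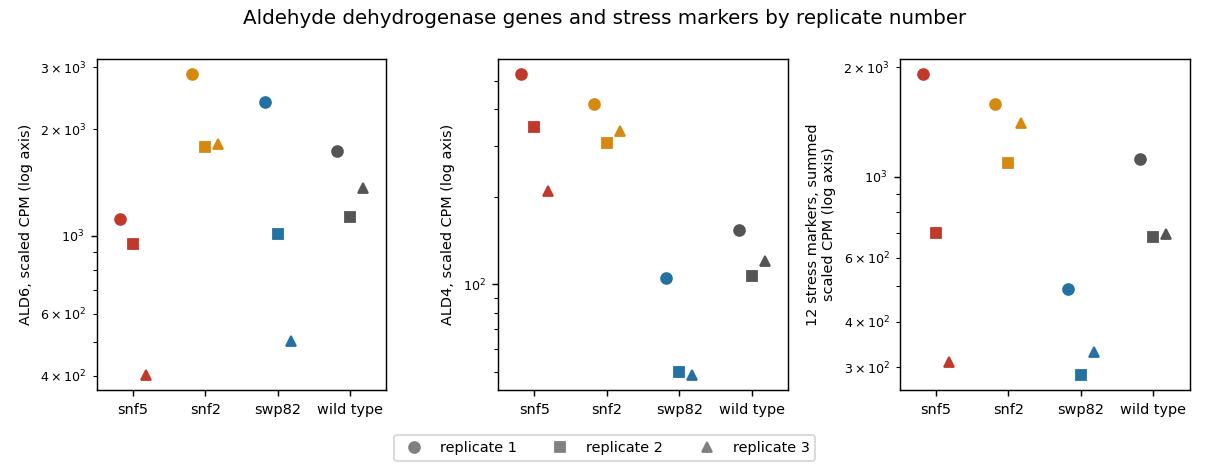
ALD6, ALD4 and the summed level of 12 stress markers in scaled CPM (log axes) for every library, with the snf5, snf2 and swp82 deletions and the wild type from left to right and the replicate number as the symbol. In all 3 panels replicate 1, the circle, is the highest of its group, and the 3 snf5 libraries spread from 402 to 1112 for ALD6.

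The share of ALD4 in the pair varied less between replicates, relative to its mean, than the level of either gene. Per kb, ALD4 was 30.4 ± 3.804% of the summed level of the pair in the snf5 deletion, 13.9 ± 1.48% in the snf2 deletion, 5.72 ± 2.47% in the swp82 deletion and 8.02 ± 0.312% in the wild type. Every snf5 library (26.1 to 33.5%) lay above every snf2 library (12.3 to 15.2%), and these above every wild-type library (7.83 to 8.38%), while the swp82 libraries (4.05 to 8.56%) overlapped with the wild type. The shares of the families were not tested across genes and are given with their spread only.

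The share of members called in the snf5 and snf2 deletions was above that of all genes. Of the 8 called in the snf5 deletion 4 were higher and 4 lower, while 14.8% of all genes were called higher and 14.5% lower. Of the 6 called in the snf2 deletion 3 were higher and 3 lower, while 13.6% of all genes were called higher and 14.1% lower. For the 0 called in the swp82 deletion, edgeR and DESeq2 also called 0, with 2 of 9 at an unadjusted limma p under 0.05 (ADH3 and ALD4). The count was 1, ALD4, with the replicate block, and also without swp82 replicate 1. The libraries of the 2 groups did not overlap for 9 of 9 members in the snf5 deletion (41.4% of all genes), 7 of 9 in the snf2 deletion (52.9%) and 3 of 9 in the swp82 deletion (31.1%). The members' median log2 change was -0.29 for the snf5 deletion, -0.04 for snf2 and -0.10 for swp82, beside -0.013, -0.0040 and 0.0023 over all genes, and it hides that members moved in opposite directions. The 3 comparisons share the wild-type libraries, so they are not independent of each other.

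**Figure D4:**
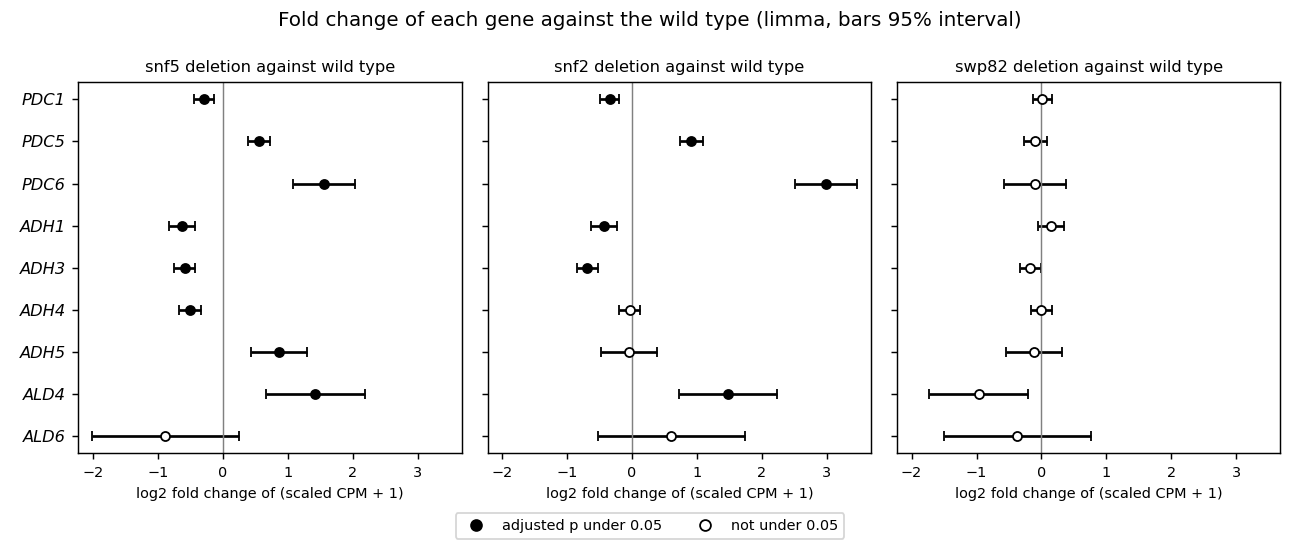
Fold change of each gene in the snf5, snf2 and swp82 deletions against the wild type (log2 of scaled CPM + 1, linear axis shared by the panels), with 95% intervals from limma; filled points have an adjusted p under 0.05. There are 8 filled points in the snf5 panel, 6 in the snf2 panel and 0 in the swp82 panel, with PDC6 at 2.99 in the snf2 panel.

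Between the snf5 and snf2 deletions, which are labelled with the same tag but differ in LEU2 reads, 4 of 9 members differed, against 12.5% of all genes. PDC6 was lower in the snf5 than in the snf2 deletion by 1.43 ± 0.22 on the log2 scale (limma adjusted p = 0.00307), as was PDC5 by 0.36 ± 0.08 (limma adjusted p = 0.0147) and ADH4 by 0.47 ± 0.07 (limma adjusted p = 0.00358). ADH5 was higher in the snf5 deletion by 0.93 ± 0.20 (limma adjusted p = 0.0125). ALD6 stood at -1.49 ± 0.51 with no overlap between the libraries, and did not pass (limma adjusted p = 0.0852). Calls on PDC5 and ADH5 were lost without snf2 replicate 1 (limma adjusted p = 0.0502 and 0.0589), which left 2 members called, and the PDC5 call was also lost without snf2 replicate 2 (limma adjusted p = 0.0609). The members that both strains lowered did not pass here: the difference was 0.05 for PDC1 (95% interval -0.10 to 0.20), -0.20 for ADH1 (95% interval -0.40 to 0.0047) and 0.10 for ADH3 (95% interval -0.06 to 0.27). ALD4 differed by -0.05, with an interval of -0.81 to 0.71 that is wide beside the changes from the wild type.

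Set against the swp82 deletion, labelled with the same tag but without LEU2 reads, 8 of 9 members passed in the snf5 deletion (41.9% of all genes) and 6 of 9 in the snf2 deletion (43.5% of all genes). The libraries labelled snf2 and swp82 have the same tag in their labels and, against those labels, both lack LEU2 reads. In that pair PDC6 was higher in the snf2 deletion by 3.08 ± 0.22 on the log2 scale (limma adjusted p = 1.95e-06), PDC5 by 1.01 ± 0.08 (limma adjusted p = 3.95e-06) and ALD4 by 2.44 ± 0.34 (limma adjusted p = 0.000246). ADH1 was lower in the snf2 deletion by 0.58 ± 0.09 (limma adjusted p = 0.000546), ADH3 by 0.52 ± 0.07 (limma adjusted p = 0.000287) and PDC1 by 0.36 ± 0.07 (limma adjusted p = 0.00179). With total-count scaling, where the median of all genes was 0.21, the PDC1 difference was -0.14 and no longer passed (limma adjusted p = 0.112). ALD6 stood at 0.98 ± 0.51 (limma adjusted p = 0.143), and without swp82 replicate 1 at 1.56 with a limma adjusted p of 0.0155.

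In the snf5 deletion the same 6 genes lay on the same side of the swp82 deletion, with PDC6 at 1.65 ± 0.22, PDC5 at 0.65 ± 0.08 and ALD4 at 2.39 ± 0.34 higher, and ADH1 at -0.77 ± 0.09, ADH3 at -0.41 ± 0.07 and PDC1 at -0.30 ± 0.07 lower (log2, limma adjusted p of 8.36e-05 to 0.00483). ADH4 was lower by 0.50 ± 0.07 and ADH5 higher by 0.99 ± 0.20 as well (limma adjusted p = 0.000438 and 0.00257). The PDC1 call did not hold with total-count scaling (-0.14, limma adjusted p = 0.129), where the median of all genes was 0.16. The snf5 and snf2 comparisons share the swp82 libraries.

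**Figure D5:**
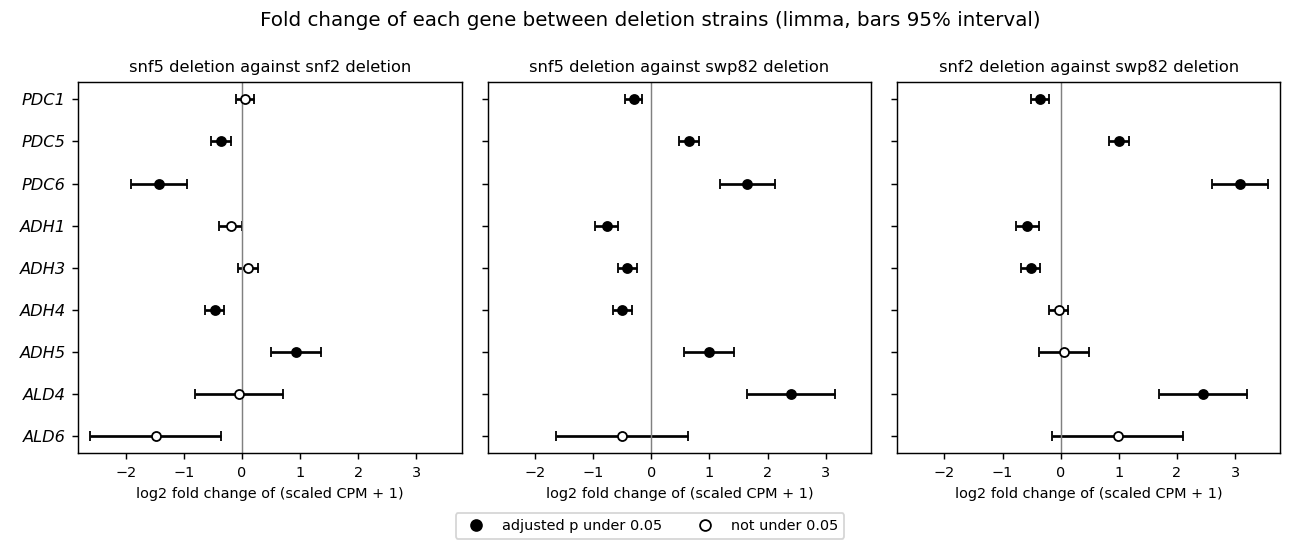
Fold change of each gene between deletion strains (log2 of scaled CPM + 1, linear axis shared by the panels), snf5 against snf2, snf5 against swp82 and snf2 against swp82, with 95% intervals from limma; filled points have an adjusted p under 0.05. PDC6 lies at -1.43, 1.65 and 3.08, and the ALD6 interval is the widest in each panel.

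Per kb of coding sequence the 9 genes spanned a wide range in the wild type. PDC1 (9169 ± 585 scaled CPM per kb) and ADH1 (8279 ± 286) led, with replicates that overlapped. ALD6 (938 ± 206) and ADH3 (556 ± 11.3) followed, then ADH4 (91.5 ± 4.31) and ALD4 (81.4 ± 15.5), which overlapped, then ADH5 (22.5 ± 1.47), PDC5 (11.6 ± 0.975) and PDC6 (0.753 ± 0.173). In the snf5 and snf2 deletions ALD4 stood above ADH4, at 233 ± 103 beside 64.4 ± 6.88 scaled CPM per kb in the snf5 deletion and 227 ± 37.5 beside 89.1 ± 2.59 in the snf2 deletion. In the snf2 deletion PDC5 (22.3 ± 0.677) reached ADH5 (21.9 ± 3.8).

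Other genes around this branch point were counted from lists put together with these data already known. Beside each list stand the shares of all genes called in either direction: 29.3% in the snf5 deletion, 27.7% in the snf2 deletion and 3.49% in the swp82 deletion. The first list held 11 genes, other alcohol and aldehyde dehydrogenase genes and with them the decarboxylase gene ARO10. In the snf5 deletion 1 rose and 3 fell, and in the snf2 deletion 1 rose and 1 fell. None passed in the swp82 deletion, where ALD2 had the smallest p (limma adjusted p = 0.103). The list's median log2 change was -0.18, -0.037 and -0.00033 in that order, beside the values over all genes given above. The gene that rose was ADH2, glucose-repressed and ethanol-oxidising, with 17.0 ± 2.98 scaled CPM in the snf5 deletion, 24.2 ± 1.17 in the snf2 deletion and 2.66 ± 0.388 in the wild type (limma adjusted p = 1.76e-06 and 4.57e-07). ADH2 is the gene whose sequence overlaps with ADH1's, which is far more abundant. ARO10, a decarboxylase gene of amino acid breakdown, fell to 5.33 ± 1.72 in the snf5 deletion and 19.97 ± 6.79 in the snf2 deletion, against 62.5 ± 5.63 in the wild type. It was the 1 gene of the list that fell in the snf2 deletion. ADH6, an aldehyde reductase gene, and BDH1, a butanediol dehydrogenase gene, fell in the snf5 deletion by 0.22 and 0.69 (log2, limma adjusted p = 0.0301 and 0.0337).

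Of 13 genes for pyruvate entry into the mitochondrion and for acetyl-CoA, 5 rose and 0 fell in the snf5 deletion, 2 rose and 0 fell in the snf2 deletion, and 1 fell in the swp82 deletion, with list medians of 0.18, 0.12 and -0.023 (log2). In the snf5 deletion the changes were small: the pyruvate carrier gene MPC2 rose by 0.44 ± 0.08 (log2, limma adjusted p = 0.00243), the pyruvate dehydrogenase genes PDX1 and PDB1 by 0.32 and 0.18, and the acetyl-CoA synthetase gene ACS2 by 0.25. In the snf2 deletion ACH1, which moves CoA between acetate and other acids, rose by 0.96 ± 0.19 (limma adjusted p = 0.00368) and ACS1 by 0.36. PYC2, a pyruvate carboxylase gene, fell by 0.39 in the swp82 deletion (limma adjusted p = 0.0175).

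Of 9 genes of glycerol metabolism and of NADH oxidation at the mitochondrial membrane, 3 rose and 2 fell in the snf5 deletion, 3 rose and 0 fell in the snf2 deletion, and 0 rose and 2 fell in the swp82 deletion, with list medians of -0.0074, 0.0061 and -0.41. GPP1, a glycerol phosphatase gene, rose by 0.63 ± 0.09 in the snf5 and 0.65 ± 0.09 in the snf2 deletion (log2, limma adjusted p = 0.000463 and 0.000392), and GUT2, the mitochondrial glycerol phosphate dehydrogenase gene, by 0.81 and 1.12. NDI1, the internal NADH dehydrogenase gene, rose by 0.72 in the snf2 deletion. NDE1, an external NADH dehydrogenase gene, fell to 154 ± 12.6 scaled CPM in the snf5 deletion, against 322 ± 10.2 in the wild type (limma adjusted p = 7.31e-06), and stood at 297 ± 33.8 in the snf2 deletion. GPP2 fell by 1.48 in the snf5 and 1.41 in the swp82 deletion, and GUT1 by 0.28 in the swp82 deletion.

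Of 12 transcription factors known to act on these genes, 2 rose and 4 fell in the snf5 deletion, 2 rose and 3 fell in the snf2 deletion, and 0 rose and 2 fell in the swp82 deletion, with list medians of -0.067, -0.061 and -0.051. GCR1 and TYE7, activators of glycolytic genes, fell. GCR1 stood at 92.4 ± 3.81 scaled CPM in the snf5 deletion and 111 ± 4.46 in the snf2 deletion, against 157 ± 4.88 in the wild type (limma adjusted p = 6.18e-06 and 0.000170). TYE7 stood at 38.0 ± 9.73 and 51.2 ± 7.45, against 127 ± 21.6 in the wild type. ADR1, an activator of ADH2 and ALD4 when glucose is gone, rose to 54.9 ± 11.96 and 68.2 ± 7.04, against 29.8 ± 0.793 in the wild type (limma adjusted p = 0.000640 and 6.94e-05). The stress factor gene MSN4 fell in the snf5, snf2 and swp82 deletions, by 1.52, 0.75 and 0.81. CAT8, a factor for growth without glucose, fell by 0.80 in the swp82 deletion (limma adjusted p = 0.0227). It stood higher in the other deletions, at 12.5 ± 3.15 scaled CPM in snf5 and 11.2 ± 0.822 in snf2. The wild type had 5.91 ± 0.232, and every snf5 and snf2 library lay above every wild-type library. Among the rest PDC2, whose product activates PDC1 and PDC5, had no call. It was at 92.1 ± 11.1, 103 ± 2.23, 113 ± 6.11 and 100.4 ± 2.80 in the snf5, snf2 and swp82 deletions and the wild type.

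Of 18 thiamine genes, 8 rose and 1 fell in the snf5 deletion, 8 rose and 2 fell in the snf2 deletion, and none passed in the swp82 deletion, where SNZ3 had the smallest p (limma adjusted p = 0.113). The list medians were 0.13, 0.25 and -0.017. THI4, for the thiazole part of thiamine, stood at 10.7 ± 1.36 scaled CPM in the snf5 deletion and 9.41 ± 0.467 in the snf2 deletion, against 4.001 ± 0.595 in the wild type (limma adjusted p = 1.58e-05 and 5.03e-05). THI2, a regulator of thiamine genes, rose by 1.05 and THI12 by 1.37 in the snf5 deletion (log2), and THI13 by 1.02 and SNZ2 by 0.50 in the snf2 deletion. THI5, THI11, THI12 and THI13 are near-identical copies, so their reads may be split among them. They also rest on few reads, in the wild type 2 to 4 a library for THI5, 37 to 47 for THI11, 6 to 8 for THI12 and 12 to 24 for THI13. The counts above take such copies as separate genes. PHO3, a thiamine-repressed phosphatase gene, fell to 134 ± 29.9 in the snf5 deletion and 138 ± 9.66 in the snf2 deletion, against 553 ± 37.8 in the wild type (limma adjusted p = 1.03e-06 and 1.37e-06). PHO3 was the 1 gene of this list that fell in the snf5 deletion, where 8 rose, THI4 among them. The part of thiamine supply in these changes was not tested.

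Of 12 zinc regulon genes, 3 rose and 1 fell in the snf5 deletion, 2 rose and 2 fell in the snf2 deletion, and none passed in the swp82 deletion, where FET4 had the smallest p (limma adjusted p = 0.105). The list medians were 0.13, -0.031 and 0.098. Among all genes 29.3, 27.7 and 3.49% were called in the same order. ZPS1 rose by 1.01 ± 0.13 in the snf5 and 0.82 ± 0.13 in the snf2 deletion (log2, limma adjusted p = 0.000184 and 0.000845). ZRT2, a low-affinity zinc transporter gene, fell by 0.47 and 0.40, IZH2 fell by 0.76 in the snf2 deletion and ZRT3, a vacuolar zinc exporter gene, rose by 0.26 there. DPP1, a lipid phosphatase gene, and TSA1, a peroxiredoxin gene, rose in the snf5 deletion by 0.24 and 0.33.

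Among the 12 stress and late-growth markers, the small heat shock gene HSP12 fell in the snf5 deletion to 2.11 ± 0.786 scaled CPM, against 75.2 ± 52.8 in the wild type (log2 change -4.44 ± 0.52, limma adjusted p = 9.68e-05), and there DDR2 fell by 2.48, HSP26 fell by 2.36 and SPI1 fell by 1.01. CTT1, the gene next to PDC6, rose in the snf2 deletion to 60.6 ± 8.27 scaled CPM, against 25.9 ± 3.89 in the wild type (limma adjusted p = 0.00204), and stood at 19.3 ± 7.14 in the snf5 deletion (limma adjusted p = 0.148). GRE1 rose by 1.11 in the snf2 deletion. In the swp82 deletion DDR2 fell by 3.12, GPH1 by 2.61, HSP26 by 2.14 and HXT5 by 0.91.

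The genes whose profiles over the 12 libraries were most like that of PDC6, by the root-mean-square difference of centred log2 values, were PUT4 (0.39), a proline permease gene, CDA1 (0.45), a chitin deacetylase gene of spores, and CSS1 (0.49), beside a median over all genes of 1.30. For ALD4 they were ATG39 (0.27), an autophagy receptor gene, RTS3 (0.32) and SPO24 (0.42), beside a median of 1.11. The log2 changes of PUT4 from the wild type were 1.69 for the snf5 deletion, 2.50 for snf2 and -0.51 for swp82, beside 1.56, 2.99 and -0.10 for PDC6. Those of ATG39 were 1.09, 1.30 and -0.89 in the same order, beside 1.43, 1.48 and -0.97 for ALD4. These genes were picked for their likeness, which is therefore a description.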

How the data were processed

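RNA was sequenced in 12 libraries of yeast, grouped by their titles. The submitters' processing notes name sacCer3 as build and, among tools, edgeR 3.8.6, Bowtie2 2.1.0 and TopHat2 2.0.10. In the sources used here it is not given how reads were counted, with which annotation and strand setting. The values deposited by the authors are a normalised signal that behaves as CPM divided by a TMM factor (scaled CPM): 100% of values are whole multiples of 1 read (tolerance 0.05 of a read), and factors computed from the recovered reads differed from the deposited ones by at most 3.89e-06. These factors ran from 0.907 to 1.08. A single read stands for 0.0801 to 0.118 scaled CPM. No 2 replicates agreed within sampling noise (chi-square of 2.97 to 79.3 for each degree of freedom), so none was taken as a copy.

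The values were put on the scale log2(scaled CPM + 1) and tested in R 4.3.3 by limma 3.58.1 with a mean-variance trend. One fit held all libraries and a group term alone. Of all genes, 5820 reached 1 scaled CPM in 3 or more libraries and were tested, and 115 were removed. A call is a two-sided limma p under 0.05 after Benjamini-Hochberg adjustment over the 5820 genes. Alternatives were pseudocounts of 0.1 and 5, no filter, other scalings, edgeR 4.0.16 (quasi-likelihood) and DESeq2 1.42.0 on recovered reads, a fit of 2 groups, a replicate block and the removal of each library. The fitting code was tested on simulated data. Same-numbered libraries all deviated together, with correlations above 0.1, in 2 pairs of groups, by the data and not by the labels: 0.255 to 0.599 between swp82 and wild-type libraries, and 0.116 to 0.660 between snf5 and swp82 libraries. The authors' group means in their filtered list are on the same signal scale. Coordinates and sequences are from R64, of which sacCer3 is a copy, with 5685 identifiers matched and 250 not.

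The members and gene lists were chosen with earlier results of these data known. Named beside the 9 members are, from each list, up to 4 called genes with the smallest p in each comparison with the wild type, or, for a list with no call, its gene of smallest p, and the 3 genes closest in profile to each member called with a log2 change of at least 1. Named apart from this rule were STE2, STE3, LEU2, SNF5, SNF2 and SWP82 for the labels, and PDC2, TPS1, TSL1, THI5 and THI11.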

Additional observations from a re-analysis of the deposited data

Results flagged for a closer look

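In all, 6 differences between deletion strains, each called by limma with a log2 difference of at least 1, were marked for a second look because the strains' changes from the wild type differ by the test of the difference itself. PDC6 differed by -1.43 between the snf5 and snf2 deletions (5.68 ± 0.804 and 17.0 ± 2.37 scaled CPM, limma adjusted p = 0.00307). It differed by 1.65 between the snf5 and swp82 deletions (5.68 ± 0.804 and 1.20 ± 0.797, limma adjusted p = 0.000189), and by 3.08 between the snf2 and swp82 deletions (17.0 ± 2.37 and 1.20 ± 0.797, limma adjusted p = 1.95e-06). ALD4 differed by 2.39 between the snf5 and swp82 deletions (363 ± 161 and 68.0 ± 32.2, limma adjusted p = 0.000350) and by 2.44 between the snf2 and swp82 deletions (354 ± 58.5 and 68.0 ± 32.2, limma adjusted p = 0.000246). PDC5 differed by 1.01 between the snf2 and swp82 deletions (37.6 ± 1.15 and 18.3 ± 1.69, limma adjusted p = 3.95e-06). In each of the 6 the libraries of the strains did not overlap (SD, n = 3 each).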

How the results depend on the processing

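Of 54 comparisons of a member, 32 were called, and 27 of these were called under all 21 alternatives. The adjusted p of the other 5 ran over the alternatives from 0.000208 to 0.0552 for PDC1 (snf5 deletion against wild type), 8.05e-05 to 0.129 for PDC1 (snf5 against swp82), 1.43e-06 to 0.112 for PDC1 (snf2 against swp82), 0.00169 to 0.0609 for PDC5 and 0.000138 to 0.0857 for ADH5 (both snf5 against snf2). The PDC1 losses came with total-count scaling and, against the wild type, with a fit of 2 groups, which also lost ADH5 (limma adjusted p = 0.0857). Of the 22 not called, 5 were called under some alternative: ADH4 between snf2 and swp82 (0.0409 to 0.944), ALD4 in the swp82 deletion (0.0150 to 0.357 over the alternatives) and ALD6 in the snf2 deletion against the wild type (0.0452 to 0.707) and against swp82 (0.0155 to 0.487) and in snf5 against snf2 (0.0110 to 0.247). The 4 members called between the snf5 and snf2 deletions became 2 to 5 when 1 library was left out, and the 0 of the swp82 deletion became 0 to 1. With the replicate block the swp82 count was 1, ALD4. The block also called ALD6 between snf5 and snf2 (limma adjusted p = 0.0110) and between snf2 and swp82 (0.0248). The labels do not pair these libraries, and their same-numbered correlations ran from -0.104 to 0.401 and from 0.054 to 0.415 in that order. The block changed no other call.

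The changes of sign were all in differences that had not been called. ADH4 was 0.10 in the snf2 deletion against the wild type with total-count and 0.010 with upper-quartile scaling, and against swp82 0.19, which was then called, and 0.040 in the same order, where the median over all genes became 0.21 by total count. ADH5 was 0.082 in the snf2 deletion with total-count scaling. PDC1 in the swp82 deletion was -0.063 with total-count and -0.011 with upper-quartile scaling. ALD4 between snf5 and snf2 was 0.036 by edgeR and 0.042 by DESeq2. Leaving out 1 library gave ranges across 0 of -0.17 to 0.076 for ADH5 in the snf2 deletion, and in the swp82 deletion of -0.037 to 0.053 for PDC1, -0.38 to 0.061 for PDC6, -0.045 to 0.016 for ADH4 and -0.96 to 0.17 for ALD6. Between deletions they were -0.37 to 0.29 for ALD4 (snf5 against snf2), -1.05 to 0.076 for ALD6 (snf5 against swp82) and -0.053 to 0.19 for ADH5 (snf2 against swp82). Not divided by length, the ADH4 share was 1.48% in the snf2 deletion, the ADH1, ADH3 and ADH4 shares were 93.3, 5.44 and 1.02% in the swp82 deletion and 92.0, 6.66 and 1.12% in the wild type, as these genes differ in length. The other causes were not tested. Depth limits PDC6, with 6 to 18 reads a library in the swp82 deletion and the wild type, and replicate spread limits ALD6.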
